A study of Mus musculus with 2 samples.

Results

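The 10 genes described here are 4 apolipoprotein genes (Apoe, Apoc1, Apoc2 and Apoc4) and 6 genes named for lipid handling in macrophages (Trem2, Gpnmb, Lpl, Fabp4, Fabp5 and Abca1). They were chosen by name, with earlier results of these data known, and all 10 were found among the 33696 genes of the count matrices. The data come from solid tumours of the mouse ID8 model, a line derived from mouse ovarian surface epithelium that grows in the peritoneal cavity. Treatment-naive (primary) tumours gave 1 library, and cisplatin-treated tumours described as chemoresistant gave the other. Each library was made from pooled tumour suspensions, so animals cannot be separated. Strain, age, cisplatin dose and the number of tumours in a pool were not given in the sources used here. With 1 library per group no difference below has a replicate check, and every interval given is a 95% interval of counting error only.

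Apolipoproteins are the protein part of lipoprotein particles. Apolipoprotein E is the main one made by macrophages and is recognised by receptors of the LDL receptor family, while the C apolipoproteins act on lipid exchange and on lipases, apolipoprotein C2 being the activator of lipoprotein lipase (Lpl). Trem2 is a lipid-sensing receptor of macrophages that signals through the adaptor Tyrobp, Gpnmb is a membrane glycoprotein of lipid-laden and lysosome-rich macrophages, Fabp4 and Fabp5 carry fatty acids inside cells, and Abca1 exports cholesterol to apolipoproteins and is a target of the oxysterol-sensing LXR receptors. In solid tumours, macrophages that express Apoe, Trem2, Gpnmb and Fabp5 together are often called lipid-associated macrophages.

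After limits on barcodes and removal of doublets, 11508 primary and 13130 chemoresistant cells were kept, at a median of 5421 and 4157 UMIs (unique transcript molecules) per cell. Each cell was placed in a class by the number of markers detected from lists that hold none of the 10 genes. A total of 13% of primary and 20% of chemoresistant cells met no class, and 6.45% and 3.46% met more than 1 and were left out. Mononuclear phagocytes, that is monocytes and macrophages, numbered 2680 and 3560, with a median of 10919 and 5475 UMIs. All 13 of their markers were detected in both libraries, and their summed level was 20127 and 24014 CPM (the summed UMIs of a gene scaled to the total UMIs of the same cells), against 533 and 632 CPM in B-lineage cells. The libraries shared 52 barcodes, which were kept.

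The 4 apolipoprotein genes lie side by side on the minus strand of chromosome 7 (GRCm38), within 27.6 kb from 19671579 to 19699188, in the order Apoe, Apoc1, Apoc4, Apoc2 along their direction of transcription. Apoe spans chr7:19696109-19699188, Apoc1 chr7:19689481-19692660, Apoc4 chr7:19678083-19681479 and Apoc2 chr7:19671579-19677941, so that 141 bases separate the end of Apoc4 from the start of Apoc2. GENCODE vM21 also holds a joined protein-coding model (Gm44805) over both, which is not a row of the matrices. The handling of reads shared by such models was not given in the sources used here, and the split between Apoc2 and Apoc4 carries that uncertainty. Fabp4 (chr3:10204088-10208576) and Fabp5 (chr3:10012548-10016607) share chromosome 3, and the other genes are apart: Trem2 at chr17:48346401-48354147, Gpnmb at chr6:49036546-49070929, Lpl at chr8:68880491-68907448 and Abca1 at chr4:53030787-53159895.

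RefSeq (GRCm38.p6) gave a promoter window, from 250 bases before to 50 after the start, for 6 of the 10 genes. The windows of Apoc4 and Apoc2 are printed because these neighbours were the pair furthest up in chemoresistant phagocytes, that of Apoe as the head of the same cluster, and that of Abca1 because it holds an LXR element. Motifs searched on both strands were the LXR element (GGTNA, then 5 bases of any kind, then GGTCA), the lysosomal-gene element TCACNTGA, the PU.1 element GAGGAAGT and the TATA box TATAAA, and capitals mark matches.
Apoe promoter, chr7:19699139-19699438, minus strand: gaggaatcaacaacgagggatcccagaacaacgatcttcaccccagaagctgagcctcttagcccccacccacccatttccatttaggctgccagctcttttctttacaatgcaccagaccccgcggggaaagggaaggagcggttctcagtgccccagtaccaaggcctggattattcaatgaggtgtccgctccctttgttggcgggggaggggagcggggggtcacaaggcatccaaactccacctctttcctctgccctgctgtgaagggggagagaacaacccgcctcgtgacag
Apoc4 promoter, chr7:19681411-19681710, minus strand: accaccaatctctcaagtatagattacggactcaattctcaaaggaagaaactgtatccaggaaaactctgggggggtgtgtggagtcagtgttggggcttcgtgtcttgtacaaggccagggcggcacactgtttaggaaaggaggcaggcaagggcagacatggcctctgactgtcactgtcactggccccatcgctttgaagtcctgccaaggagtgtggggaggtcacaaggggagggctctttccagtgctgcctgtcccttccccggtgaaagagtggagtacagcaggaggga
Apoc2 promoter, chr7:19677892-19678191, minus strand: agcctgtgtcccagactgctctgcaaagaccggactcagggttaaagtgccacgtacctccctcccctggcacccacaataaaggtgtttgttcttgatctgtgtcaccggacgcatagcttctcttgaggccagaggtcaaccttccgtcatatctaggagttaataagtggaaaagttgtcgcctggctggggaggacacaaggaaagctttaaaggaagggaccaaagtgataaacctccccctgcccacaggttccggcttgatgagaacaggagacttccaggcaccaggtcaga
Abca1 promoter, chr4:53159846-53160145, minus strand: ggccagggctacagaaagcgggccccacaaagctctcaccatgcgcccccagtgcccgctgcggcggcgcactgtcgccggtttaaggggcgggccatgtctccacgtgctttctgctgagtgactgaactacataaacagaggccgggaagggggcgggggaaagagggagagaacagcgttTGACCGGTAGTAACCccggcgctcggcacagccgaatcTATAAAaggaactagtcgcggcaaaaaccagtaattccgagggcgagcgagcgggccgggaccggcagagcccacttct
The Abca1 window held the LXR element on the strand opposite to the gene, its first base 67 before the start, and a TATA box 29 before the start. Of 32851 promoters of the same length, 0.207% held the LXR letters, 13.6% the TATA letters, 4.18% the lysosomal-gene letters and 3.20% the PU.1 letters. The other 5 windows held none of the 4 motifs. The LXR letters were shortened by 1 base after a longer form gave no match in the 6 windows. A match describes the letters only.

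Across cell classes the 10 genes did not share a single pattern. Apoe, Apoc4, Trem2 and Gpnmb had 77.8 to 84.2% of their UMIs in mononuclear phagocytes in both libraries, as the name lipid-macrophage genes says. Apoc2 had 66.9% there in the primary and 84.8% in the chemoresistant library. Lpl, Fabp4, Apoc1, Fabp5 and Abca1 went partly against the name: phagocytes held 25.1 and 18.7% of Lpl UMIs, 3.52 and 61.6% of Fabp4 UMIs, 31.1 and 63.6% of Apoc1 UMIs, 48.4 and 36.5% of Fabp5 UMIs and 58.0 and 53.5% of Abca1 UMIs.

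Apoe stood at 17120 CPM (interval 17075 to 17166) in primary and 22110 CPM (22048 to 22171) in chemoresistant phagocytes. It was the member with the highest level in phagocytes by a wide margin. Next came adipocytes, with 9487 CPM in 25 primary cells, and, among classes of at least 100 cells, primary fibroblasts at 2250 CPM and B-lineage cells at 1507 CPM (1489 to 1525) and 1736 CPM (1697 to 1777). T and NK cells had 539 CPM (519 to 560) and 656 CPM (586 to 732). Free RNA from broken cells can give low levels to every cell type, and its part here was not tested. An Apoe UMI was seen in 99.8 and 98.8% of phagocytes, and 94.3 and 85.9% of B-lineage cells (median 4412 and 1637 UMIs) had an Apoe UMI. The B-lineage level was 8.80 and 7.85% of the phagocyte level, while the summed macrophage genes C1qa, C1qb and C1qc stood at 2.15 and 2.43% of theirs. In T and NK cells Apoe was at 3.15 and 2.97% and the C1q genes at 2.33 and 2.66%.

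Apoc1 was low in phagocytes, at 13.7 CPM (12.4 to 15.1) and 18.9 CPM (17.2 to 20.8). Its highest level was in the 25 primary adipocytes, at 1411 CPM (1300 to 1528), which held 43.6% of all primary Apoc1 UMIs. No chemoresistant cell met the adipocyte markers, which allows up to 0.0281% of cells by the exact binomial interval. Apoc2 stood at 415 CPM (408 to 422) and 834 CPM (822 to 846) in phagocytes and was higher only in 54 primary enterocytes, the absorbing cells of the gut, at 1554 CPM (1487 to 1622). Apoc4 had 38.4 CPM (36.3 to 40.7) and 120 CPM (116 to 125) in phagocytes. Classes with at least 100 cells other than phagocytes had at most 9.07 CPM of Apoc4, in chemoresistant neutrophils.

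**Figure D1:**
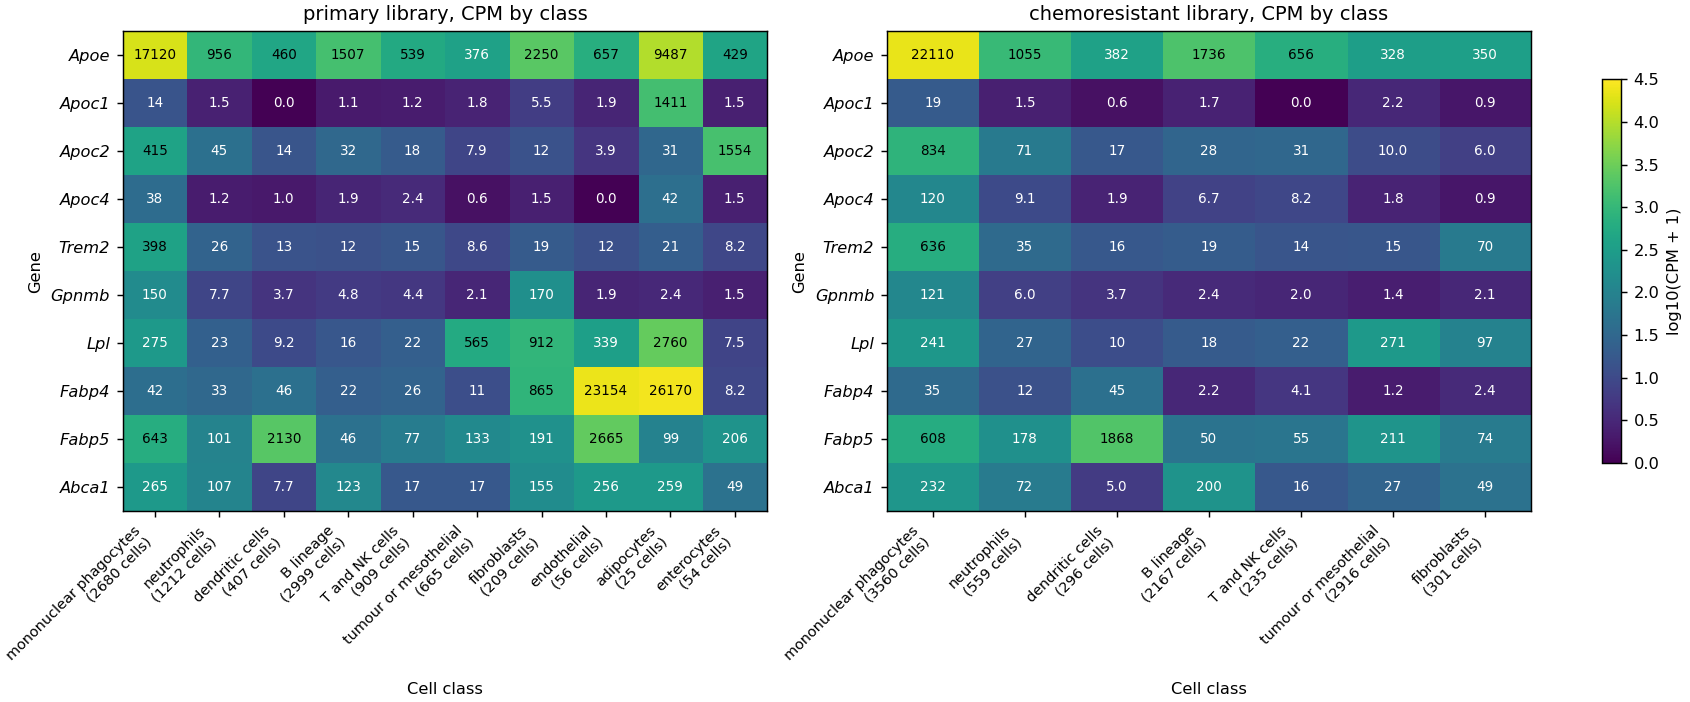
Level of each gene (rows, CPM printed in each cell, colour on a log10 scale) by cell class (columns, with the number of cells) in the primary (left) and chemoresistant (right) library, for classes of at least 25 cells. Apoe, Trem2 and Apoc4 are brightest in phagocytes among the large classes, whereas Fabp4 peaks at 26170 CPM in adipocytes and 23154 CPM in endothelial cells and Fabp5 at 2130 and 1868 CPM in dendritic cells among classes of at least 100 cells.

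Trem2 was at 398 CPM (391 to 405) and 636 CPM (626 to 647) in phagocytes and at 8.60 to 34.8 CPM in neutrophils, dendritic, B-lineage, T and NK and tumour or mesothelial cells of both libraries. Chemoresistant fibroblasts were apart, at 70.2 CPM (62.8 to 78.3), which was 11.0% of the phagocyte level, while the C1q genes stood at 0.934% of theirs in the same cells. Gpnmb was at 150 CPM (146 to 155) and 121 CPM (117 to 126) in phagocytes. Its level in primary fibroblasts, 170 CPM (155 to 187), was of the same order, and the remaining large classes of both libraries had at most 7.70 CPM.

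Lpl, which splits triglycerides of lipoproteins at the cell surface, had more UMIs in the class of tumour or mesothelial cells, whose markers do not part the 2, than in phagocytes. That class held 46.0% of all Lpl UMIs of the primary and 71.1% of the chemoresistant library, at 565 CPM (557 to 574) in 665 cells and 271 CPM (267 to 275) in 2916 cells. Phagocytes had 275 CPM (269 to 281) and 241 CPM (235 to 248). Cells were also thinned to 1500 UMIs, which left out cells with fewer. Among thinned cells, 53.7 and 30.2% of tumour or mesothelial cells and 22.6 and 24.4% of phagocytes had an Lpl UMI. The share was 2.39 and 2.46% in thinned B-lineage cells. Primary adipocytes (2760 CPM) and fibroblasts (912 CPM) were higher still.

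Fabp4 was a gene of adipocytes and vessel-lining cells here. Its level was 26170 CPM (25685 to 26661) in 25 adipocytes and 23154 CPM (22742 to 23572) in 56 endothelial cells of the primary library, and these cells held 29.9 and 32.3% of its UMIs. Phagocytes had 41.9 CPM (39.7 to 44.3) and 35.1 CPM (32.7 to 37.6). In the primary library B-lineage cells had 22.1 CPM and T and NK cells 26.1 CPM, and after thinning 4.10% of phagocytes, 2.97% of B-lineage and 3.56% of T and NK cells had a Fabp4 UMI. The primary phagocyte level, 41.9 CPM, was above both by more than counting error. It was not above that of primary dendritic cells, at 45.6 CPM (39.2 to 52.7). Primary neutrophils had 32.6 CPM, and 4.55% of them had a Fabp4 UMI after thinning. In the chemoresistant library B-lineage cells were at 2.16 CPM and T and NK cells at 4.09 CPM. There 3.30% of thinned phagocytes, against 0.460% of B-lineage and 1.27% of T and NK cells, had a UMI.

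Fabp5 reached its highest level among large classes in dendritic cells, the antigen-presenting class, at 2130 CPM (2085 to 2176) in 407 primary and 1868 CPM (1802 to 1936) in 296 chemoresistant cells. That was 331 and 307% of the phagocyte level, which was 643 CPM (635 to 652) and 608 CPM (598 to 619). The share of cells with a Fabp5 UMI was not higher in primary dendritic cells, at 49.6% against 61.6% of primary phagocytes. After thinning these shares were 29.1 and 31.0%. Primary endothelial cells had 2665 CPM. Abca1 stood at 265 CPM (259 to 270) and 232 CPM (226 to 239) in phagocytes. B-lineage cells had 123 CPM (118 to 128) and 200 CPM (186 to 214), or 46.6 and 85.9% of the phagocyte level, while T and NK cells had 16.7 and 16.3 CPM and dendritic cells 7.72 and 4.95 CPM. The Abca1 level thus differed between lymphocyte classes by more than counting error in both libraries.

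The phagocytes were split into 8 subsets by limits on other genes, applied in order: Vsig4 or Timd4 (genes of resident macrophages), low C1q, Retnla or Ear2 (genes of alternative activation), Il1b or Cxcl2 (inflammatory genes), Arg1 with Saa3 (arginase with an acute-phase gene), Arg1 with low Saa3, Ccr2 with low Arg1 (Ccr2 is a monocyte chemokine receptor), and the remaining cells with C1q. The Arg1 with Saa3 subset made up 11.2% (301 cells, interval 10.1 to 12.5%) of primary and 24.5% (872 cells, 23.1 to 25.9%) of chemoresistant phagocytes. The C1q-low subset made up 16.2% (434 cells) and 5.39% (192 cells). The Vsig4 or Timd4 subset had 45 primary cells and was described but not compared.

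Among subsets of at least 100 cells, all 3 C apolipoproteins were highest in Arg1 with Saa3 phagocytes in both libraries. Apoc2 was at 879 CPM (849 to 909) and 1461 CPM (1433 to 1489) there, at 466 and 747 CPM in Arg1 with low Saa3 phagocytes, and lowest at 135 CPM in primary Retnla or Ear2 and 137 CPM in chemoresistant Il1b or Cxcl2 phagocytes. Apoc4 was at 145 CPM (133 to 158) and 268 CPM (256 to 280) in Arg1 with Saa3 phagocytes and under 10 CPM in C1q-low, Retnla or Ear2 and Ccr2 phagocytes of both libraries. Apoc1 was at 25.6 CPM (20.8 to 31.2) and 33.8 CPM (29.7 to 38.4) in the Arg1 with Saa3 subset, and its primary interval overlapped that of the C1q-low level of 18.6 CPM (14.6 to 23.3). Chemoresistant Vsig4 or Timd4 phagocytes (137 cells) came close, with 1252 CPM of Apoc2, 246 CPM (218 to 277) of Apoc4 and 30.9 CPM of Apoc1. Their Apoc4 interval overlapped that of the Arg1 with Saa3 subset, and with thinned cells they were the higher of the pair.

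Apoe had another order, with its lowest levels in Retnla or Ear2 (4677 and 6685 CPM) and C1q-low phagocytes (6742 and 7138 CPM). It was highest in the remaining C1q subset of the primary library (28714 CPM, against 27378 CPM in the chemoresistant) and in the Arg1 with Saa3 subset of the chemoresistant library (31197 CPM, against 27496 CPM in the primary). Vsig4 or Timd4 phagocytes were close, at 26894 and 30187 CPM. Trem2 was lowest in C1q-low phagocytes, at 163 CPM (151 to 176) and 300 CPM (268 to 335). At the other end its primary levels in remaining C1q (550 CPM, 520 to 580), Arg1 with low Saa3 (499 CPM, 486 to 513) and Arg1 with Saa3 phagocytes (484 CPM, 462 to 506) lay close together, the latter pair with overlapping intervals.

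Gpnmb and Fabp5 were the most uneven of the genes with over 100 CPM in both libraries. The 10% of phagocytes richest in Gpnmb held 77.9% of its primary and 72.4% of its chemoresistant UMIs, and the 10% richest in Fabp5 held 65.2 and 65.9%, against 33.0 and 34.3% for Apoe. Gpnmb was at 257 CPM (241 to 274) and 192 CPM (182 to 202) in Arg1 with Saa3 phagocytes, at 249 and 156 CPM with low Saa3, and at 10.0 and 7.82 CPM in Ccr2 phagocytes, while the small Vsig4 or Timd4 subset had 298 CPM (251 to 352) and 196 CPM (171 to 224). Fabp5 had its highest level in Arg1 with low Saa3 phagocytes, at 1089 CPM (1069 to 1108) and 1119 CPM (1093 to 1145), and its lowest in Ccr2 phagocytes, at 129 and 92.6 CPM. Between the Arg1 subsets Fabp5 was thus lower with Saa3 (687 and 534 CPM), the reverse of Apoc2.

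Lpl ranged less, from 107 CPM (89.9 to 127) in Il1b or Cxcl2 phagocytes to 400 CPM (374 to 426) in the remaining C1q subset of the primary library, and from 146 to 367 CPM in the chemoresistant one. The ends of the Lpl order, other than the chemoresistant top, fell to other subsets under some settings. Abca1 was highest in Il1b or Cxcl2 phagocytes in both libraries, at 719 CPM (673 to 767) and 381 CPM (352 to 411), and lowest in Ccr2 phagocytes, at 158 and 108 CPM. Fabp4 was highest in Vsig4 or Timd4 phagocytes, at 260 CPM (216 to 310) in 45 primary and 120 CPM (100 to 142) in 137 chemoresistant cells.

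**Figure D2:**
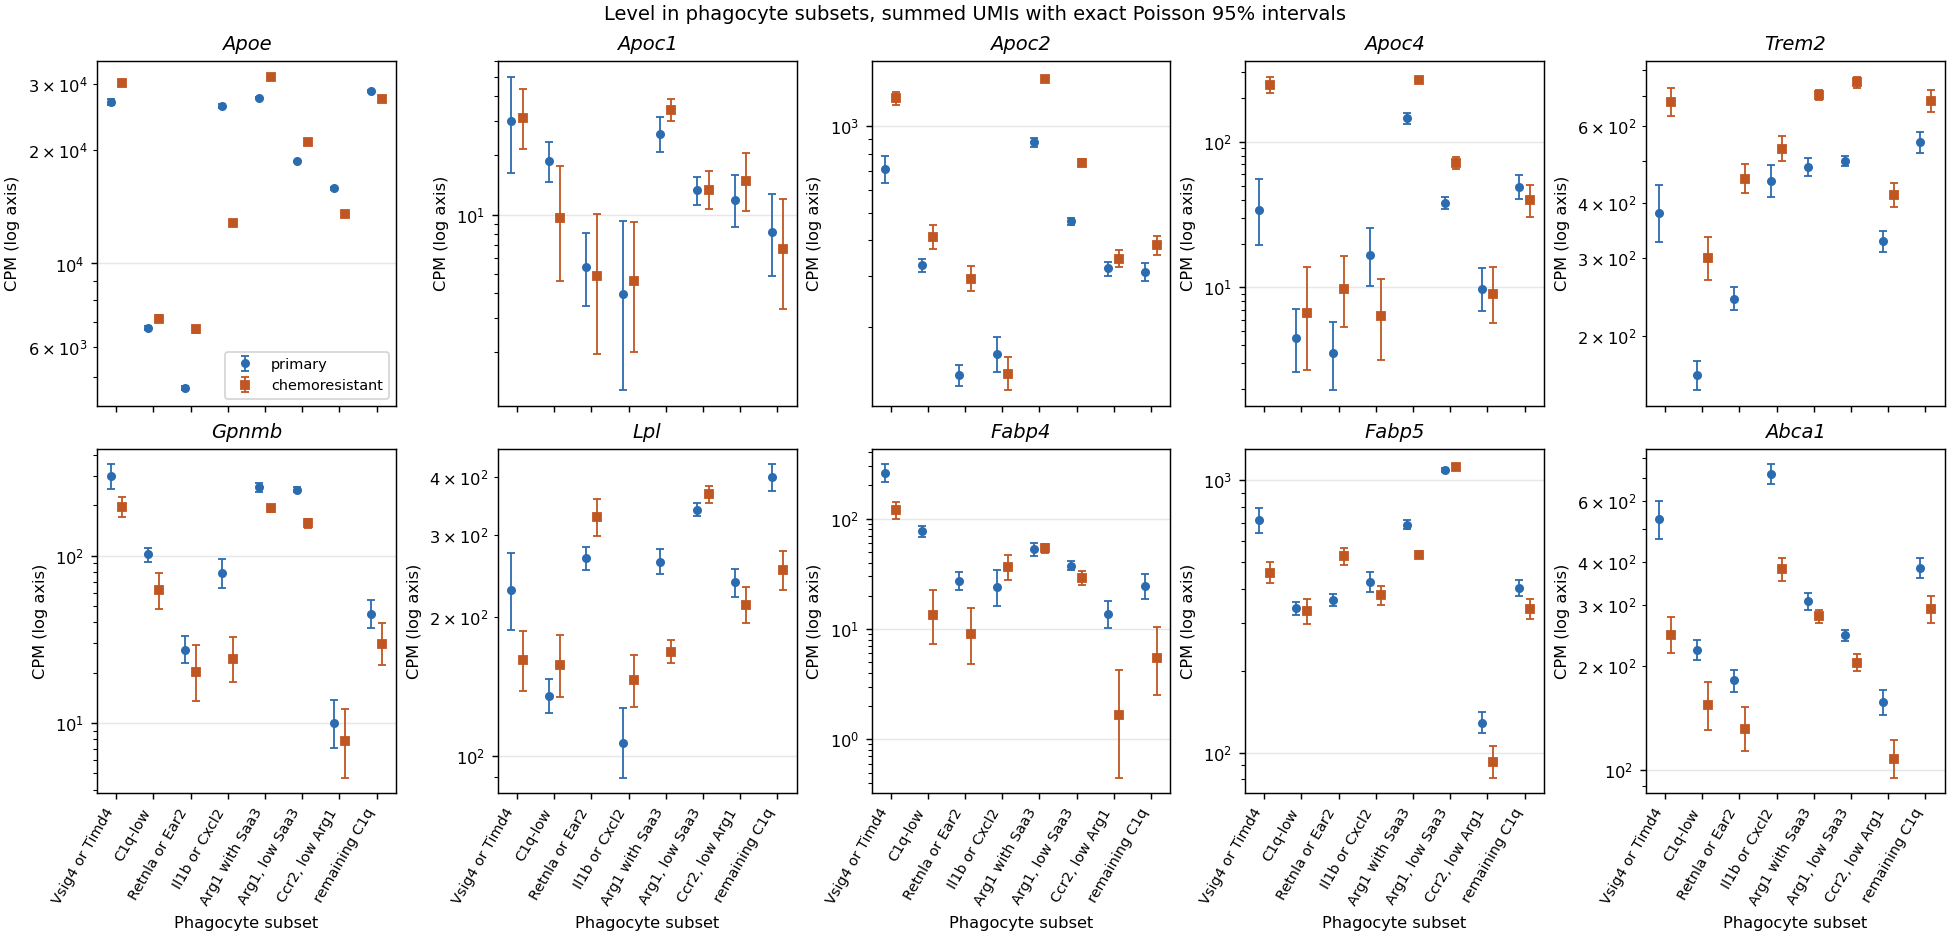
CPM of each gene (panels, log axes) in the 8 phagocyte subsets, for the primary (circles) and chemoresistant (squares) library, with exact Poisson 95% intervals. Apoc2 and Apoc4 are highest in the Arg1 with Saa3 subset in both libraries, Fabp5 peaks in the Arg1, low Saa3 subset at 1089 and 1119 CPM, and Abca1 peaks in the Il1b or Cxcl2 subset at 719 and 381 CPM.

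Over the 15 subset levels with at least 100 cells (8 chemoresistant and 7 primary), Apoc2 went with Apoc1 (Pearson r 0.88) and Apoc4 (0.86), Gpnmb with Fabp5 (0.79), and Apoe with Apoc4 (0.81) and Trem2 (0.78), while Lpl stayed between -0.31 and 0.30 with every other member. These values describe 15 points that come from 2 libraries, share their depth within a library, and carry no test. Among 4718 genes outside the set with at least 50 CPM in some subset, those most like Apoe were Tlr7 (0.95), Agpat3 (0.94) and Itga6 (0.92), and those most like Trem2 were Bri3 (0.92), Htatip2 (0.90) and Itm2b (0.90). Most like Gpnmb were Tcf7l2 (0.88), Papss2 (0.85) and Fpr1 (0.84), and most like Fabp5 were Vat1 (0.87), Cd36 (0.86) and Pf4 (0.86). Cd36 is a scavenger receptor that takes up fatty acids.

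Single cells showed the same pairing of Gpnmb and Fabp5. Among phagocytes thinned to 1500 UMIs, the 320 primary cells with a Gpnmb UMI had 1654 CPM of Fabp5 (1541 to 1773), and the 2336 without had 397 CPM (376 to 418). In the chemoresistant library the levels were 1112 CPM (1028 to 1201) in 388 cells and 394 CPM (376 to 413) in 3040 cells. Within Arg1 with low Saa3 phagocytes alone the gap remained, at 1824 and 774 CPM in the primary and 1715 and 816 CPM in the chemoresistant library. Apoe differed much less by Gpnmb within that subset, at 21893 and 17909 CPM and at 21269 and 20529 CPM.

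Fabp5 was also higher in phagocytes with a Trem2 UMI, at 779 against 419 CPM in the primary and 583 against 352 CPM in the chemoresistant library, and in those with an Lpl UMI, at 875 against 453 CPM and 682 against 409 CPM. Apoe stood at 22837 CPM with and 14157 CPM without a Trem2 UMI in primary phagocytes, and at 24162 and 18292 CPM in chemoresistant ones. Within a subset the Fabp5 gap by Trem2 did not always have this direction: it was 657 CPM (550 to 778) with and 760 CPM (655 to 877) without in primary Arg1 with Saa3 phagocytes, and 281 and 311 CPM in chemoresistant Il1b or Cxcl2 phagocytes, with overlapping intervals. For Apoc2 the pooled values with and without a Trem2 UMI were 535 and 345 CPM in the primary and 790 and 642 CPM in the chemoresistant library. Chemoresistant Arg1 with Saa3 phagocytes with and without a Trem2 UMI had 1381 CPM (1300 to 1466) and 1408 CPM (1305 to 1516) of Apoc2. With and without an Lpl UMI, pooled Apoc2 stood at 422 and 411 CPM in the primary and 644 and 745 CPM in the chemoresistant library. Cells with and without an Lpl UMI in Arg1 with low Saa3 phagocytes had 373 and 506 CPM of Apoc2 in the primary and 563 and 763 CPM in the chemoresistant library, with intervals that did not overlap. Apoc2, the activator of Lpl, was thus lower where an Lpl UMI was present in that subset, and with Saa3 the chemoresistant values were 1452 CPM (1305 to 1611) with and 1377 CPM (1306 to 1450) without.

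**Figure D3:**
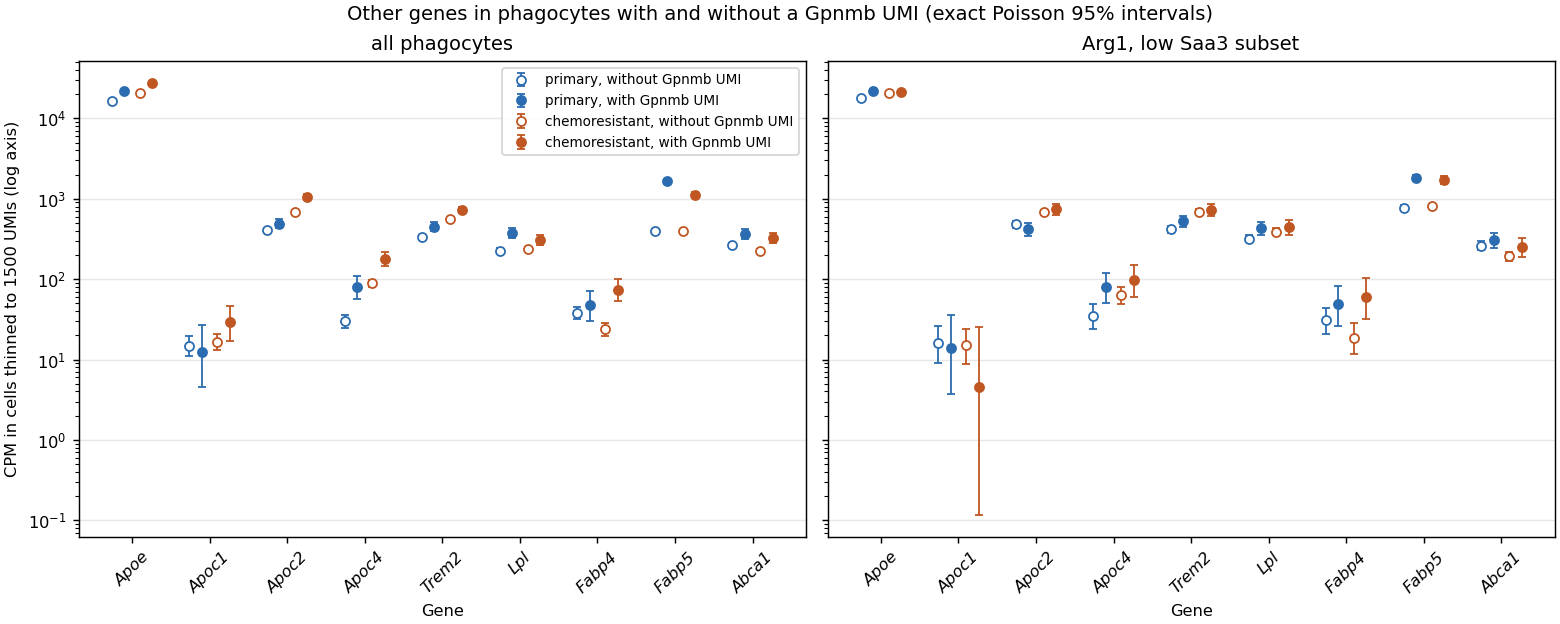
CPM (log axis) of 9 genes in phagocytes with (filled) and without (open) a Gpnmb UMI, in cells thinned to 1500 UMIs, for all phagocytes (left) and the Arg1, low Saa3 subset (right), primary in blue and chemoresistant in orange, with exact Poisson 95% intervals. Fabp5 shows the widest gap by Gpnmb among the genes over 100 CPM in both panels, at 1824 against 774 CPM in the primary subset, whereas the chemoresistant Trem2 and Apoe values of that subset lie close together.

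The main comparison between libraries asked how these genes stood in phagocytes of chemoresistant against primary tumours. A gene was called higher or lower when the ratio of CPM, with 5 CPM added to each, was at least 1.5-fold. Apoc4, Apoc2 and Trem2 were called higher and none lower. Apoc4 went from 38.4 to 120 CPM (log2 ratio 1.53), Apoc2 from 415 to 834 CPM (1.00) and Trem2 from 398 to 636 CPM (0.67). The 3 of 10 higher stand beside 2.15% of the 8568 genes with at least 10 CPM, and the 0 of 10 lower beside 9.43%. Because the 10 genes were chosen with earlier results of these data known, these shares are a description and not a test. The median log2 ratio of the 10 genes was 0.14, and that of all 8568 genes -0.24.

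The other 7 genes lay within 1.5-fold. Apoe had a log2 ratio of 0.37, Apoc1 0.35, Fabp5 -0.08, Abca1 -0.18, Lpl -0.19, Fabp4 -0.23 and Gpnmb -0.30. The counting intervals of all 10 ratios left out 1, which at these counts reflects depth and says nothing of variation between tumours. Relative to the median gene, 5 were called higher, Apoe (0.61) and Apoc1 (0.60) being added, and Lpl (0.06), Abca1 (0.06), Fabp4 (0.02) and Fabp5 (0.16) changed sign.

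The calls changed with the weight given to each subset. With each of the 7 compared subsets given the same weight, a setting chosen after seeing the data, Apoc2 had a log2 ratio of 0.54, Apoc4 0.56 and Trem2 0.50, so that no gene reached 1.5-fold higher, and Fabp4 (-0.66) and Gpnmb (-0.61) were called lower. That setting leaves out the small Vsig4 or Timd4 subset. Summing the same 7 subsets without equal weights, also added after seeing the data, kept all 3 calls, at 0.98 for Apoc2, 1.45 for Apoc4 and 0.66 for Trem2. Chemoresistant phagocytes held 54.5% of their Apoc2 UMIs and 69.3% of their Apoc4 UMIs in the Arg1 with Saa3 subset, against 25.8 and 45.9% in primary phagocytes. In pooled libraries, more cells of a kind and more RNA per cell are parted only as far as these subset limits part them.

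Within the subsets, Trem2 had a log2 ratio above 0 in 7 of 7 (0.24 to 0.89), and above that of the median gene in 7 of 7. Gpnmb was below 0 in 7 of 7 (-1.51 to -0.23), and below the median gene in all of them. Its ratio interval included 1 in Ccr2 (10.0 to 7.82 CPM) and in Retnla or Ear2 phagocytes (27.5 to 20.3 CPM). Abca1 was also below 0 in 7 of 7 (-0.91 to -0.14), but above the median gene in 1. Apoc2 was above 0 in 6 of 7 (-0.22 to 1.09). Apoc4, with the largest pooled ratio, could be compared in 4 subsets and was above 0 in 2, both Arg1 subsets. It was below 0 in the other 2, Il1b or Cxcl2 (-0.93) and remaining C1q (48.9 to 39.6 CPM, -0.28, with a ratio interval that included 1).

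In Arg1 with Saa3 phagocytes 2 of 10 genes were called higher (3.79% of all genes) and 1 lower (17.2%). Apoc2 went from 879 to 1461 CPM (0.73) and Apoc4 from 145 to 268 CPM (0.86), and Lpl was lower, from 263 to 168 CPM (-0.63). With low Saa3, 3 of 10 were higher (2.13%), namely Apoc2 (0.67), Apoc4 (0.83) and Trem2 (499 to 752 CPM, 0.59), and 1 lower (10.9%), Gpnmb (249 to 156 CPM, -0.66). Within both Arg1 subsets, Apoc2 and Apoc4 were therefore higher in the chemoresistant library as well as in the pool.

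In Retnla or Ear2 phagocytes 2 of 8 compared genes were higher (3.08%), Apoc2 (135 to 294 CPM, 1.09) and Trem2 (243 to 455 CPM, 0.89), and 1 lower (14.0%), Fabp4. In C1q-low phagocytes 1 of 9 was higher (5.14%), Trem2 (163 to 300 CPM, 0.86), and 3 lower (23.3%), Apoc1, Gpnmb and Fabp4. The Apoc1 call there, from 18.6 to 9.58 CPM (-0.69), rested on few UMIs, with a log2 ratio interval from -2.07 to 0.00. Ccr2 phagocytes had 0 of 9 higher (2.15%) and 1 lower (7.83%), and the remaining C1q subset 0 of 9 higher (4.34%) and 2 lower (15.8%), Lpl (400 to 252 CPM, -0.66) and Fabp4.

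Il1b or Cxcl2 phagocytes stood apart. Apoe went from 26157 to 12812 CPM (-1.03), Abca1 from 719 to 381 CPM (-0.91), Gpnmb from 78.6 to 24.3 CPM (-1.51) and Apoc4 from 16.7 to 6.37 CPM (-0.93). These 4 of 9 compared genes were lower beside 24.6% of all genes, and 0 of 9 were higher beside 11.8%. The subset held 104 primary and 280 chemoresistant cells. Of these, 39 and 78 lay within 1.5-fold of at least 1 of the limits that set the 8 subsets, limits applied later in the order included.

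**Figure D4:**
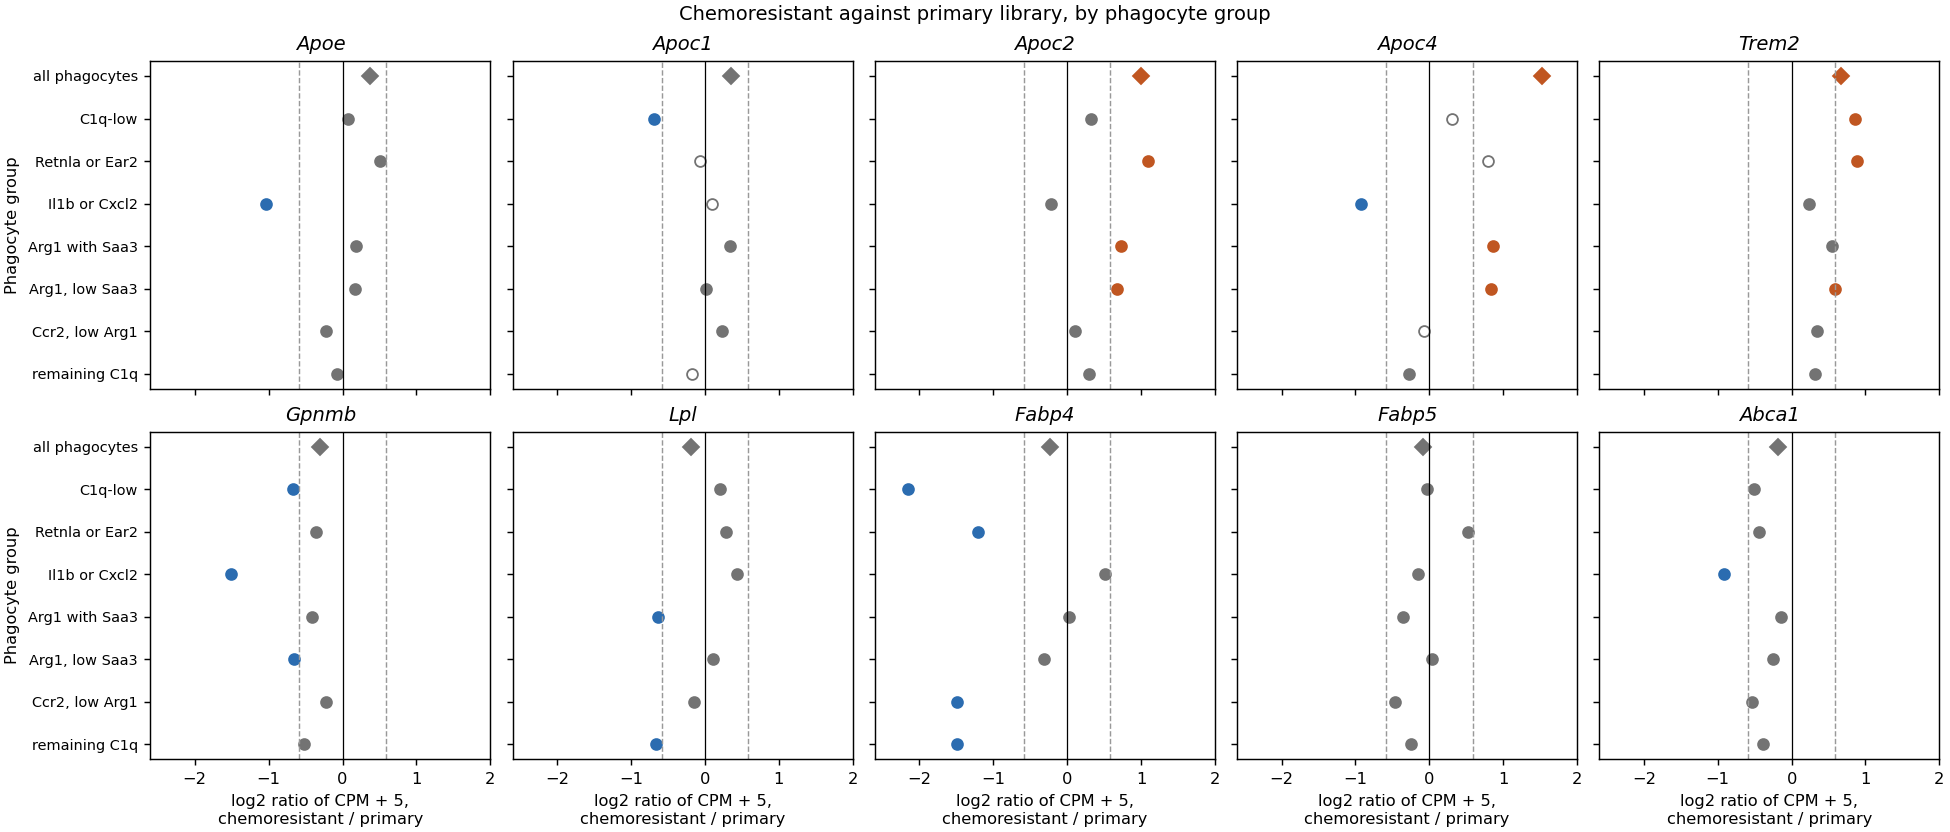
log2 ratio of CPM + 5, chemoresistant over primary (x axis), for each gene (panels) in all phagocytes (diamond) and in 7 subsets (circles), with dashed lines at 1.5-fold. Orange points are called higher, blue points lower, grey points lie between, and open points had under 10 CPM in both libraries. Trem2 points all lie right of 0, from 0.24 to 0.89 in the subsets, Gpnmb points all lie left of 0, and Apoe is called lower in 1 subset, Il1b or Cxcl2 (-1.03).

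Fabp4 was called lower in 4 phagocyte subsets, namely C1q-low (76.6 to 13.4 CPM, -2.15), Retnla or Ear2 (-1.20), Ccr2 (-1.49) and remaining C1q (-1.49). It was also called lower in B-lineage cells (22.1 to 2.16 CPM), T and NK cells (26.1 to 4.09 CPM), neutrophils (32.6 to 12.1 CPM) and tumour or mesothelial cells (11.0 to 1.16 CPM). It was the 1 lower of 7 compared genes in B-lineage cells (7.78% of all genes), T and NK cells (16.4%) and neutrophils (15.4%). Fabp4 was not lower everywhere: it stood at 45.6 and 44.6 CPM in dendritic cells (-0.03), at 52.5 and 53.7 CPM in Arg1 with Saa3 (0.03) and at 23.8 and 36.5 CPM in Il1b or Cxcl2 phagocytes (0.52). Other members were called higher in those 3 classes, namely Abca1 in B-lineage cells (0.67, beside 6.44%), Apoc2 in T and NK cells (18.5 to 30.6 CPM, 0.60, beside 11.0%, with a ratio interval that included 1), and Apoc2 (45.3 to 71.0 CPM) and Fabp5 (101 to 178 CPM) in neutrophils (13.8%). Summed adipocyte markers stood at 26.9 and 13.8 CPM in phagocytes, 20.9 and 17.5 CPM in B-lineage cells, 18.1 and 6.13 CPM in T and NK cells, 90.2 and 37.8 CPM in neutrophils and 63.3 and 39.6 CPM in dendritic cells. Most of the phagocyte sum was Lipe, at 16.9 and 13.4 CPM. Lipe was not particular to adipocytes, as tumour or mesothelial cells had 15.5 and 19.3 CPM. Cfd, another of these markers, stood at 8.09 and 0.0441 CPM in phagocytes. Of the 7 markers, 0 were at 0 in primary and 3 in chemoresistant phagocytes. The primary library held 25 adipocytes and 56 endothelial cells, and the chemoresistant library 0 and 5. The part of free RNA in the Fabp4 values was not tested. Nor was its part in the Apoc2 values of neutrophils and of T and NK cells. Apoc2 stood at 10.9 and 8.52% of the phagocyte level in neutrophils and at 4.45 and 3.68% in T and NK cells. The C1q genes stood at 4.01 and 4.34% of theirs in neutrophils and at 2.33 and 2.66% in T and NK cells. Median depth of neutrophils was 2449 and 932 UMIs.

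In tumour or mesothelial cells 6 of the 10 genes could be compared. Fabp5 was the 1 called higher (4.96% of all genes), from 133 CPM (129 to 138) to 211 CPM (207 to 214) with a log2 ratio of 0.64, and 2 were lower (10.4%). Lpl went from 565 to 271 CPM (-1.05), and Fabp4 from 11.0 to 1.16 CPM. Abca1 went from 16.7 to 26.8 CPM (0.55) and Trem2 from 8.60 to 15.3 CPM (0.58), both under the 1.5-fold limit. Median depth was 36482 UMIs in primary and 21150 UMIs in chemoresistant cells of this class. Its own markers also differed between the libraries: Wt1 stood at 794 and 537 CPM, Lrrn4 at 89.6 and 49.6 CPM, Cldn3 at 23.7 and 59.3 CPM, Upk1b at 67.2 and 136 CPM and Krt19 at 1133 and 1458 CPM. The part of the mix of tumour and mesothelial cells in these values was not tested.

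Fibroblasts gave the widest differences. Of 8 compared genes, 7 were called lower (31.7% of all genes) and 1 higher (11.5%). Fabp4 went from 865 to 2.37 CPM, Gpnmb from 170 to 2.15 CPM and Lpl from 912 to 96.7 CPM (-3.17). Apoe went from 2250 to 350 CPM (-2.67), Abca1 from 155 to 48.9 CPM (-1.57) Fabp5 from 191 to 74.3 CPM (-1.31) and Apoc2 from 12.5 to 6.03 CPM (-0.67). Trem2 went the other way, from 18.7 to 70.2 CPM (1.66), and after thinning 3.89 and 8.70% of fibroblasts had a Trem2 UMI, against 2.02 and 2.84% of B-lineage cells.

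The class differed in its markers between the libraries. Its 8 fibroblast markers summed to 19643 CPM in 209 primary and 6654 CPM in 301 chemoresistant cells, with the matrix gene Dpt at 348 and 4.31 CPM and the growth factor receptor Pdgfra at 398 and 71.7 CPM. Of the collagen genes among these markers Col1a1 differed least, at 3200 and 2283 CPM. Col1a2 stood at 4231 and 1222 CPM and Col3a1 at 4621 and 1488 CPM. The 13 tumour or mesothelial markers summed to 336 and 513 CPM in this class, but did not move together. The epithelial keratins Krt8 (18.7 and 117 CPM), Krt18 (8.08 and 31.9 CPM) and Krt19 (20.2 and 59.0 CPM) were higher in the chemoresistant cells. Krt7 was low in both libraries, at 1.10 and 1.08 CPM, and Wt1 stood at 247 and 288 CPM. Lower in the chemoresistant cells were Upk3b (11.4 and 5.82 CPM), Gpm6a (15.1 and 3.23 CPM), Lrrn4 (5.51 and 0.646 CPM) and Upk1b (4.78 and 1.72 CPM). Of the chemoresistant cells, 210 lay within 1 marker of the limit of the class, against 65 primary cells. The part of this difference in the values above was not tested.

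Other genes of the same pathways were read in phagocytes from lists chosen by pathway. Their counts stand beside 2.15% of all 8568 genes higher and 9.43% lower, and their medians beside -0.24 for all genes. Of 6 genes of Trem2 signalling, the adaptor Hcst was higher (65.0 to 104 CPM, 0.64), and the kinase Syk (293 to 180 CPM, -0.69) and the phospholipase Plcg2 (175 to 104 CPM, -0.72) were lower, while Tyrobp stood at 1971 and 2338 CPM (0.25), with a list median of -0.46. Relative to the median gene, Syk (-0.44) and Plcg2 (-0.47) were no longer called. Of 9 compared genes of cholesterol efflux and LXR, 0 were called in either direction, from Npc2, which moves cholesterol out of lysosomes (720 to 1028 CPM, 0.51), down to the HDL receptor Scarb1 (-0.39), with a median of -0.22, but relative to the median gene Npc2 was called higher (0.75). Of 6 genes of lipid uptake, 1 was lower, the sorting receptor Sorl1 (74.1 to 31.4 CPM, -1.12), and the scavenger receptor Msr1 was at the upper end (0.30).

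Of 12 genes of lipid-associated macrophages and lysosomes, Spp1, which encodes osteopontin, was higher (256 to 466 CPM, 0.85) and the integrin Itgax lower (24.8 to 12.5 CPM, -0.77), with a median of -0.03. Relative to the median gene 3 of the 12 were higher, the membrane proteins Cd9 (0.67) and Cd63 (0.66) being added, and Itgax (-0.53) was not called. Cd63 is named after its value was seen. Of 6 compared lipid storage genes, Hilpda, an inhibitor of fat breakdown, was higher (63.1 to 112 CPM, 0.79), and Acsl1, which activates fatty acids, stood at 58.9 and 38.4 CPM (-0.56). Of 6 compared genes of PPAR signalling and fatty acid oxidation, the nuclear receptors Pparg (23.6 to 13 CPM, -0.66) and Ppard (72.9 to 46.8 CPM, -0.59) were lower, but neither was called relative to the median gene (-0.42 and -0.35). Of 6 compared genes of lipolysis 0 were called, from Pnpla2 (0.12) to Angptl4 (-0.47).

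Among other apolipoproteins only Clu and Apoa1 reached 10 CPM in phagocytes. Clu, a secreted chaperone, was higher (31.6 to 69.4 CPM, 1.02) and Apoa1, the main protein of HDL, lower (21.9 to 0.132 CPM). Of 4 compared other fatty acid binding genes, Fabp1, Fabp2 and Fabp6, which are genes of the gut lining, were lower, Fabp2 from 58.1 to 0.176 CPM, and Fabp7 stood at 14.6 and 16.8 CPM. The 5 enterocyte markers other than Fabp2 summed to 7.03 CPM in primary and 0.485 CPM in chemoresistant phagocytes, beside 54 and 2 enterocytes. Their part in these values was not tested.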

How the data were processed

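Per the labels' protocols, tumours were minced, digested with collagenase, pooled and run with 10x 3' v3 chemistry. The deposited counts are whole-number UMIs per gene and barcode, made by the authors. The submitters' processing notes name Cell Ranger 8.0.1 and mm10. The gene annotation was not given in the sources used here. The members and gene lists were chosen with earlier results of these data known.

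Barcodes with at least 500 UMIs, 250 genes and at most 20% mitochondrial UMIs were kept (12824 and 14908). Doublets were removed by Scrublet score (scanpy 1.11.5) at 0.8% of barcodes per 1000 in both libraries, 1316 and 1778 barcodes, because the automatic threshold marked 261 (2.04%) and 0. A class needed a minimum number of its markers (6 of 13 for phagocytes, 2 to 5 for others), each with at least 0.5 UMIs per 10000, and no second class. Subsets needed these UMIs per 10000: Vsig4 and Timd4 4, C1q under 10, Retnla and Ear2 10, Il1b and Cxcl2 20, Arg1 8, Saa3 8, Ccr2 4. Minimum numbers, the floor (0 and 0.5 were compared on class overlap) and subset limits were set after seeing marker levels, without reading the 10 genes.

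Counts were summed per class and scaled to CPM, with exact Poisson intervals (scipy 1.17.1); shares have Clopper-Pearson intervals. Ratios used CPM + 5 for genes with at least 10 CPM in either library and classes or subsets of at least 100 cells, called at 1.5-fold. No test was possible with 1 library per group. Named are the 10 genes, the genes furthest up and down in each list (at most 4) and the 3 genes most alike for 4 members. Motif letters were chosen during the work. The ratio calculation was tested on simulated data. Intervals cover counting error only.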

Additional observations from a re-analysis of the deposited data

Results flagged for a closer look

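Some genes were called higher in 1 cell class of the chemoresistant library and lower in another, with intervals of the ratio that left out 1. The difference between the classes was not tested. Apoc2 had a log2 ratio (CPM + 5, chemoresistant over primary) of 1.00 in mononuclear phagocytes and 0.60 in neutrophils but -0.67 in fibroblasts. Fabp5 had 0.79 in neutrophils and 0.64 in tumour or mesothelial cells but -1.31 in fibroblasts. Abca1 had 0.67 in B-lineage cells but -1.57 in fibroblasts. In each of these 3 genes the lower value came from the fibroblast class, whose markers differed between the libraries. Neutrophil Apoc2 stood at 10.9 and 8.52% of the phagocyte level, and the part of free RNA in it was not tested. Among phagocyte subsets, Apoc4 had 0.86 in the Arg1 with Saa3 and 0.83 in the Arg1 with low Saa3 subset but -0.93 in the Il1b or Cxcl2 subset, where it rested on 21 primary and 11 chemoresistant UMIs.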

How the results depend on the processing

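The 12 alternatives were doublets kept, the automatic doublet threshold, stricter barcode limits, a doubled marker level, means over cells, thinning, 1 CPM added, no filter, centring, and, chosen after seeing the data, at least 8 of 13 phagocyte markers, equal weights of the subsets and sums without the Vsig4 or Timd4 subset. In 10 of them the count of genes higher in chemoresistant phagocytes was 3 and of genes lower 0. Centred on the median gene, 5 were higher and the median log2 ratio of the 10 genes was 0.38. With equal weights of the subsets, 0 were higher and 2 lower, and the median was -0.07. The log2 ratio of Apoc4 ranged from 0.56 to 1.77, that of Apoc2 from 0.54 to 1.24, that of Trem2 from 0.50 to 0.91 and that of Gpnmb from -0.61 to -0.06. Among ends of the subset order, those of Apoc1, Apoc4, Fabp4, Gpnmb and Lpl moved under at least 1 alternative. No paired analysis was possible because each group is 1 library. Depth limits Apoc1 most, at 427 and 429 UMIs over all phagocytes.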
